A study of Mus musculus with 4 samples.

Results

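The genes described here encode proteins of B cell development, from the first rearrangement of the immunoglobulin genes to the antibody-secreting plasma cell, and they were followed in mouse bone marrow cultured toward osteoclasts, the cells that resorb bone. The list held 43 genes, chosen by name. Of these, 39 were found under the same symbol in the platform annotation and 2 under a current symbol (Faim3 as Fcmr and Igj as Jchain). Cd38 and Vpreb2 were not analysed here, and Vpreb2 was named only on a probe set that is shared with Vpreb1. The 41 genes were represented by 95 of the 45101 probe sets, and 86 of these 95 passed a floor of 32.4 signal units on some array. The floor is the median of all values that are not controls, and a signal below it was set to it. All 41 genes passed the floor on some array, as did 12438 of the 18193 genes with a symbol.

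The study hybridised 4 arrays, 1 at each time, so no test and no p-value are possible and every value describes these arrays. The source was bone marrow of female C57Bl/6J mice aged 12 weeks, with no transgene or deletion named. The day 1 array holds marrow taken at extraction, and the day 4 array holds cells kept for 3 days with vitamin D3 at 10 nM and serum at 10%. The day 5 and day 7 arrays hold cells that also received M-CSF, a growth factor of macrophages, at 20 ng/ml and RANKL, the cytokine that drives osteoclast formation, at 40 ng/ml. The labels do not say how many mice were pooled or whether the arrays follow 1 culture, and time cannot be told apart from the added cytokines. The labels call all 4 samples primary osteoclast, but on day 1 the osteoclast genes Calcr, Dcstamp, Ocstamp and Oscar were below the floor, and 4 of 8 osteoclast markers were above it, against 8 of 8 on days 5 and 7.

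B cells are made in the bone marrow. In their precursors the recombinase of Rag1 and Rag2 cuts the immunoglobulin gene segments, terminal transferase (Dntt) adds bases at the joints, and the surrogate light chain of Vpreb1 and Igll1 pairs with the new heavy chain to form the pre-B cell receptor. The factors Tcf3, Ebf1 and Pax5 set and hold B cell identity. Mature B cells carry immunoglobulin M with the signalling chains Cd79a and Cd79b and surface proteins such as Ms4a1 (CD20) and Cd22, and plasma cells secrete antibody. In bulk RNA, fewer cells of a type and less RNA per cell cannot be told apart.

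Promoters are shown for 3 genes of the surrogate light chain family, whose signal ended below the floor, and for Blnk and Cd72, whose signal on day 7 stayed within 2-fold of day 1. They run from 250 bases before to 50 bases after the annotated start, 5′ to 3′, from RefSeq on build GRCm38.p6. Vpreb1 lies at chr16:16869206-16869505 (minus strand), Igll1 at chr16:16863936-16864235 (minus strand), Vpreb3 at chr10:75948050-75948349 (plus strand), Blnk at chr19:40994172-40994471 (minus strand) and Cd72 at chr4:43454577-43454876 (minus strand). Capitals mark matches on either strand to CCCNNGGG (the core of the site of the factor Ebf1), ATGCAAAT (the octamer read by Pou2f2 and its cofactor Pou2af1), CAGGTG (an E-box of the kind bound by Tcf3) and GAGGAA (a core of the kind bound by PU.1 and Spib). No matches of different motifs overlap in these windows.
Vpreb1: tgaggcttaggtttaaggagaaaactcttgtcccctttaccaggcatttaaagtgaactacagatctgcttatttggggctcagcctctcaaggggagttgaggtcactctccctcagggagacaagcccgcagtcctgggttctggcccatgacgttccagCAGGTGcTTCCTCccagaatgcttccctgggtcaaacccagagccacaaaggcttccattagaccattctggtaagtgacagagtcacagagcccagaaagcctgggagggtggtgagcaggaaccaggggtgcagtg
Igll1: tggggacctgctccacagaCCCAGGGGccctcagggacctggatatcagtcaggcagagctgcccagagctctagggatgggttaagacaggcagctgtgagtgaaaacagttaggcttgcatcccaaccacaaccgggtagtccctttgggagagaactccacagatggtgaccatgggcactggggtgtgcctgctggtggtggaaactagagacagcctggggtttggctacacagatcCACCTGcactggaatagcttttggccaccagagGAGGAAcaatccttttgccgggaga
Vpreb3: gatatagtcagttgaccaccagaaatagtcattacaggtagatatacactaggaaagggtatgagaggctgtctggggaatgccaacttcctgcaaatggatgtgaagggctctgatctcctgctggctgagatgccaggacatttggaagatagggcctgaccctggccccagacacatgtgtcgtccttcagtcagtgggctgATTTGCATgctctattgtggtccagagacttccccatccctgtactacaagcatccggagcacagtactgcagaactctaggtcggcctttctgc
Blnk: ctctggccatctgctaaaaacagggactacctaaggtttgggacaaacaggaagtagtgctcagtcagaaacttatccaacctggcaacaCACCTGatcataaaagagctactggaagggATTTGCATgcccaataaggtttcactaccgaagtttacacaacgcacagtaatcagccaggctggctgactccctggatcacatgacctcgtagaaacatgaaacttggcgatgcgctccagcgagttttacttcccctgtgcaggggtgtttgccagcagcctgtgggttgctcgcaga
Cd72: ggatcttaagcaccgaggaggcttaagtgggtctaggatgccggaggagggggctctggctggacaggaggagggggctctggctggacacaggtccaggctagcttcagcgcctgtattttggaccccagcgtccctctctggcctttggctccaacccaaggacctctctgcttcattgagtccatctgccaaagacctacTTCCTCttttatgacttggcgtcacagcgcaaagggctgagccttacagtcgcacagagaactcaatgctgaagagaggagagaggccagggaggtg

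The octamer stands at 45 bases before the start in Vpreb3, a gene past 2-fold lower by day 7, and at 130 bases before it in Blnk, a gene that was not. A promoter was found for 33 of the 41 genes. The E-box was in 10 of the 20 genes among them that were past 2-fold lower on day 7 over day 1 and in 7 of the other 13, against 22.6% of all 27025 genes in the promoter table. The PU.1 core was in 10 of the 20 and 6 of the 13, against 31.3% of all genes. The Ebf1 core was in 4 and 2, against 15.4%, and the octamer in 1 and 1, against 1.97%. The E-box and the PU.1 core were thus in about the same share of both groups, and the other motifs were in too few genes to compare. The 13 include Sdc1, which was higher. They also include Cr2 and Fcer2a, both with the E-box, which started too low to show a 2-fold fall. A match is a description of sequence and not a binding site.

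From day 1 to day 7, 27 of the 41 genes dropped by 2-fold or more and 1, Sdc1, rose by as much, with a median log2 difference of -2.42. Over all 11967 genes that passed the floor on day 1 or day 7, 16.2% were lower, 12.7% were higher and the median was 0.01. Of all the genes past 2-fold, 43.9% were higher, against 56.2% after quantile normalization and 53.1% after median scaling, which raised the median of genes above the floor on both arrays from 0.03 to 0.14 and 0.16. Under these scalings 26 and 27 of the list were lower and 1 was higher. Above the floor were all 41 genes on day 1, then 37, 30 and 21 on days 4, 5 and 7. Of all probe sets that are not controls, 52.6%, 50.9%, 49.9% and 46.6% were above it on these days. Pax5, Cr2 and Fcer2a had under 64.9 units on day 1, so that a 2-fold fall to the floor could not have been seen. Of the 38 genes with more, 27 were lower on day 7, 10 were within 2-fold and 1 was higher, and 19.6% of all 9902 genes with as much signal on day 1 were lower.

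**Figure D1:**
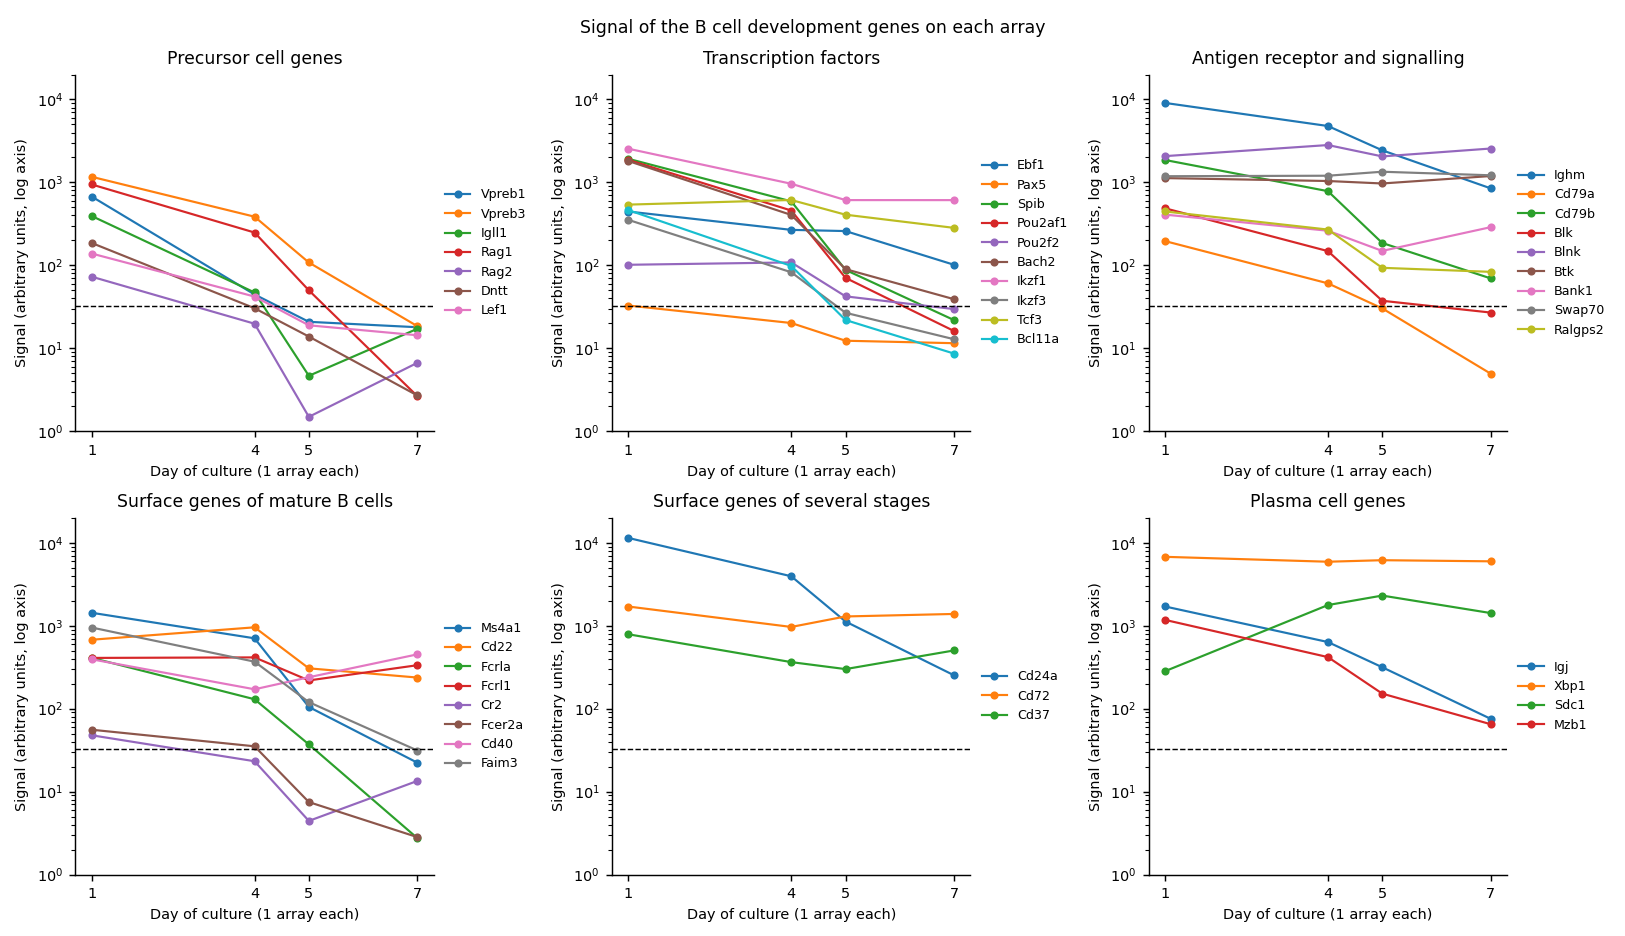
Signal of each gene (vertical log axis, arbitrary units) against the day of culture, with 1 array at each day, in 6 groups by role; the dashed line is the floor of 32.4 units and only values above it were measured. All 7 precursor genes lie below the floor on day 7, while Blnk, Btk, Swap70 and Xbp1 run level and Sdc1 goes up.

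The precursor genes were lower by day 4, before M-CSF and RANKL were added. All 7 measured precursor genes had lost 2-fold or more between days 1 and 4, where 8.65% of all genes were lower and 10% higher, with a median log2 difference of -1.93. Vpreb1, the variable-like part of the surrogate light chain, had signals of 675, 44.5, 20.9 and 18.0 on days 1, 4, 5 and 7. It was 15.1-fold lower on day 4, the largest difference at this step among the 41 genes. Igll1, the constant-like part of the same chain, had 393, 47.1, 4.66 and 17.2 and was 8.35-fold lower. Igll1 rests on a probe set with an ID ending in _x_at, and its other probe set was below the floor on all 4 arrays. Probe sets with IDs ending in _s_at, _x_at or _a_at are grouped here as of a shared kind, though these endings mark different designs. Dntt had 186, 30.4, 13.9 and 2.70 and was at least 5.73-fold lower on day 4, from a probe set with an ID ending in _a_at. Without probe sets of a shared kind, Igll1 and Dntt were below the floor on all 4 arrays, so that no difference could be measured.

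The recombinase genes stayed above the floor for different times. Rag1 had 945 on day 1 and 249 on day 4, was still above the floor on day 5 and had 2.64 on day 7. It was 3.80-fold lower on day 4 and 4.97-fold lower on day 5 than on day 4. Its partner Rag2 had 73.0 on day 1 and 19.8 on day 4 and stayed below the floor after that, and its difference of at least 2.25-fold fell short of 2-fold after quantile normalization (a log2 difference of -0.92) and with a high floor of 68.9 units (-0.083). Lef1, a Wnt pathway factor of early B and T cells, had 139, 42.0, 18.9 and 14.4 and was 3.30-fold lower on day 4 (under 2-fold as the mean of its probe sets). Vpreb3, which binds newly made immunoglobulin chains, had 1169, 386, 108 and 18.5 and was the precursor gene that stayed above the floor longest with Rag1. It was 3.03-fold lower on day 4, 3.57-fold lower on day 5 than on day 4, and at least 3.34-fold lower from day 5 to day 7. Of the 7 precursor genes, 5 were above the floor on day 4, 2 on day 5 and 0 on day 7.

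Among genes of transcription factors, by day 7, 8 of 10 were at least 2-fold lower, against 16.2% of all genes, and 6 were below the floor. Of the 8, Pou2f2 fell short of 2-fold with the high floor (a log2 difference of -0.56) and without probe sets of a shared kind (-0.30). Spib, an Ets factor of B cells and plasmacytoid dendritic cells, had signals of 1925, 591, 88.2 and 21.9 on days 1, 4, 5 and 7. Pou2af1, the coactivator of octamer factors, had 1866, 458, 70.7 and 16.2. Bach2, a repressor of plasma cell fate, had 1810, 406, 90.1 and 39.1. All 3 were lower on each array than on the one before. Spib was 6.71-fold, Pou2af1 6.49-fold and Bach2 4.50-fold lower on day 5 than on day 4, after 3.26-fold, 4.07-fold and 4.46-fold on day 4 over day 1. Bcl11a, a lymphoid factor, had 463, 98.4, 21.9 and 8.63, and Ikzf3 (Aiolos), a zinc finger factor of B cells, had 353, 82.6, 26.8 and 12.9. Both were below the floor from day 5, 4.71-fold and 4.28-fold lower on day 4.

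Ikzf1, Ebf1 and Tcf3 stayed above the floor on every array, as did Bach2. Ikzf1 (Ikaros), used across blood lineages, had 2548, 964, 612 and 612 and was 2.64-fold lower on day 4 and level from day 5 to day 7. Ebf1 had 446, 268, 259 and 102. It was not lower by 2-fold until day 7, 2.55-fold below day 5. The other 3 probe sets of Ebf1 above the floor had log2 differences between -1.51 and -1.02 at that step. Ebf1 is also expressed in marrow stromal cells. On the same arrays the summed signal of 8 stromal markers was 1666, 21197, 27281 and 20798. From day 1 to day 4, 7 of 7 measured markers were past 2-fold higher, while Ebf1 was 1.66-fold lower. From day 5 to day 7, 4 of 7 were past 2-fold lower. The part of stroma in the Ebf1 signal was not tested.

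Tcf3, the E protein, had 540, 614, 408 and 283 and was 1.91-fold lower on day 7 than on day 1. A second probe set of Tcf3 had 548, 174, 137 and 94.9, with a log2 difference of -1.65 on day 4 over day 1 against 0.18, so that its early course depends on the probe set. Pou2f2, the octamer factor Oct-2, had 102, 109, 42.3 and 29.7, and was 2.57-fold lower on day 5 than on day 4. At that step its probe set that is not of a shared kind had a log2 difference of -0.58. Pax5, the factor that commits cells to the B lineage, had 32.8 on day 1 and was below the floor afterwards, so its course could not be measured.

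Spib and Bcl11a are also genes of plasmacytoid dendritic cells. Of 7 markers of these cells, 7 were above the floor on days 1 and 4, 5 on day 5 and 4 on day 7, and their summed signal was 5608, 3600, 2360 and 1864. Siglech, a defining receptor of these cells, had 452, 87.3, 35.1 and 9.50. Of the 7, 4 were at least 2-fold lower on day 4 and 4 on day 5 than on the array before, while from day 5 to day 7 0 of 5 were lower and 1, Cox6a2, was higher. Tcf4, with 1110, 1198, 1161 and 865, and Klk1, with 148, 151, 161 and 108, stayed within 2-fold. The part of these cells in the signals of Spib and Bcl11a was not tested. Of 7 T cell markers, 4 were above the floor on day 1 and 1, 3 and 2 on the later days, and Cd3e and Cd4 were below it on every array.

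**Figure D2:**
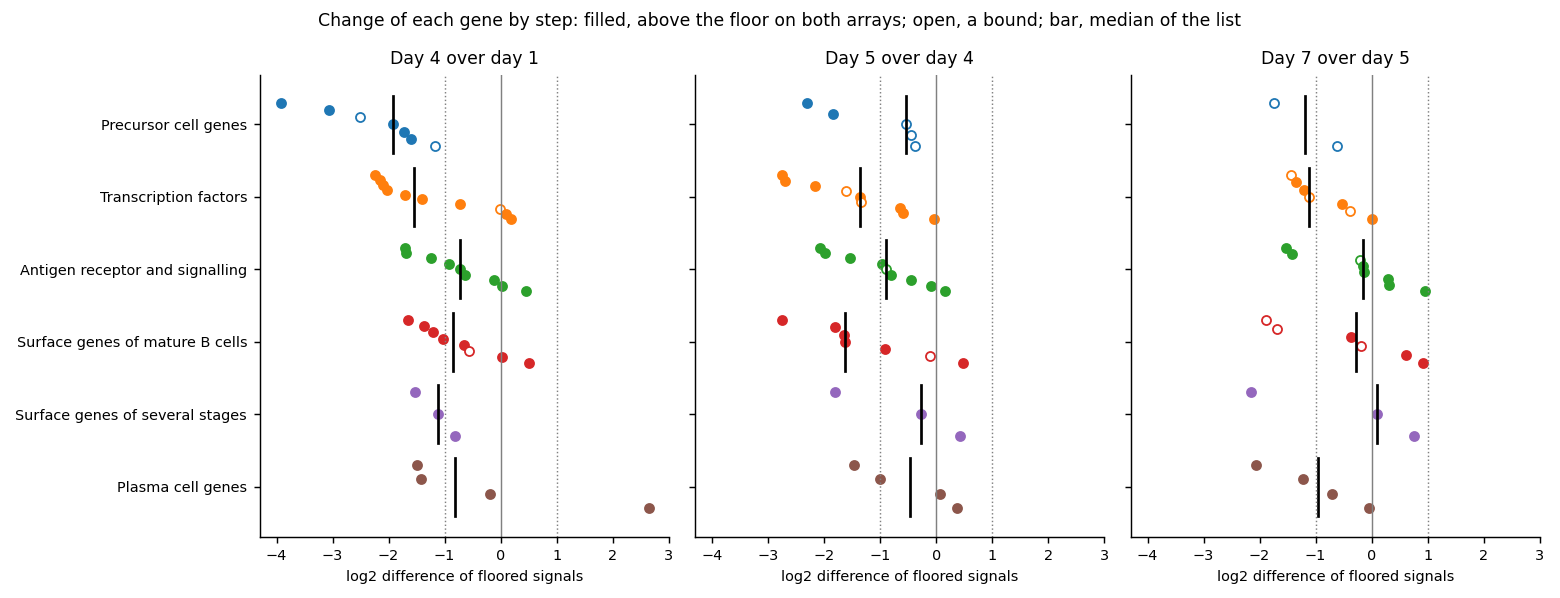
Log2 difference of each gene (horizontal axis, from signals set to at least the floor) at the 3 steps of the culture, by role; filled points are genes above the floor on both arrays, open points are bounds, black bars are list medians and dotted lines mark 2-fold. The 7 precursor genes all lie past 2-fold on day 4 over day 1, and Sdc1 is the point at 2.65 among the plasma cell genes.

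Genes of the antigen receptor went down, while genes of several signalling proteins inside the cell did not. Ighm, the heavy chain of immunoglobulin M, had signals of 9088, 4789, 2440 and 848 and was 10.7-fold lower on day 7 than on day 1, yet still well above the floor. Its probe sets ran in parallel: all 7 that were above the floor on both day 4 and day 1 had negative differences, between -1.34 and -0.69. Cd79b, which carries the receptor's signal, had 1864, 785, 186 and 69.6 and was 26.8-fold lower on day 7 than on day 1. Its partner Cd79a had 196, 60.7, 30.3 and 4.94 and was at least 6.04-fold lower. Blk, a Src family kinase of B cells, had 488, 149, 37.4 and 27.0 and was at least 15.0-fold lower. Ralgps2, a Ral exchange factor, had 446, 270, 93.4 and 83.5 and was 5.34-fold lower, most of it between days 4 and 5. Its other probe sets had smaller log2 differences on day 7 over day 1, of -1.38 and -1.07 against -2.42. From day 5 to day 7 they had 0.26 and at least 0.38, against -0.16.

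In contrast, Blnk, Btk and Swap70 were within 2-fold of day 1 on every later array, and Bank1 was on days 4 and 7 but not on day 5, at 36.5% of day 1. Blnk, the adaptor that links the receptor to downstream enzymes, had 2076, 2824, 2059 and 2564. Btk, the kinase that is mutated in X-linked agammaglobulinaemia, had 1128, 1040, 971 and 1195. Both genes are also used by macrophages and osteoclasts. Swap70, a binder of actin and phosphoinositides, had 1188, 1205, 1346 and 1219, the flattest course of these genes. Bank1, a scaffold of B cell calcium signalling, had 409, 262, 149 and 289. It was 1.93-fold higher on day 7 than on day 5, and past 2-fold under both other scalings of the arrays. On the same arrays the summed signal of 6 macrophage markers was 33828, 59006, 53579 and 57156, with 6 of 6 above the floor throughout; their part in these signals was not tested.

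**Figure D3:**
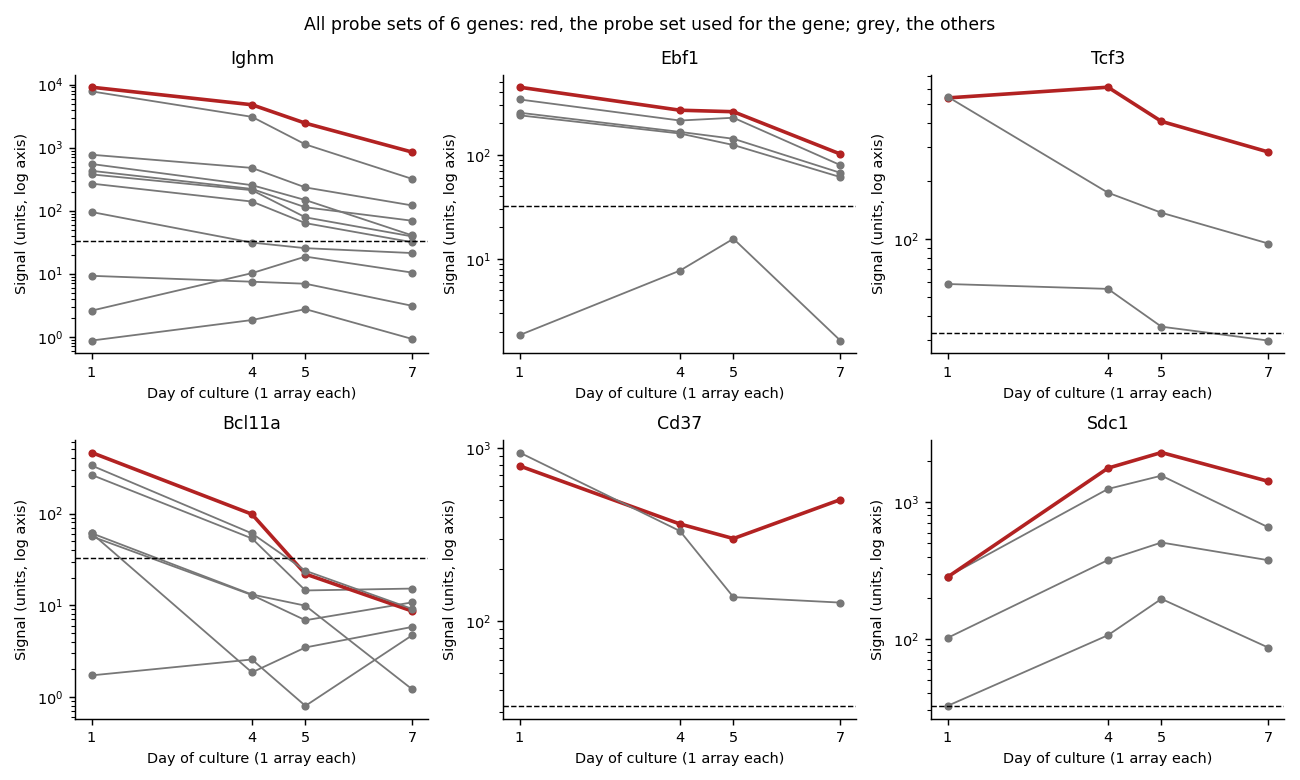
Signal (vertical log axis) of every probe set of 6 genes by day of culture, with 1 array at each day; red is the probe set used for the gene, grey the others, and the dashed line is the floor of 32.4 units. By day 7 the bright probe sets of Ighm, Ebf1 and Bcl11a are all lower than on day 1 and those of Sdc1 all higher, by differing amounts. Those of Tcf3 part after day 1 and those of Cd37 after day 4.

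Among surface genes of mature B cells, Ms4a1 and Cd22 had their larger step after day 4. Ms4a1 (CD20) had 1433, 705, 105 and 22.3; it was 2.03-fold lower on day 4, and 6.73-fold lower on day 5 than on day 4. Cd22, a lectin that restrains the receptor, had 678, 957, 306 and 237, so that it was not lower on day 4 at all and was 3.12-fold lower on day 5 than on day 4. A second probe set of Cd22 took the same course, with log2 differences of 0.25 and -1.93. Faim3, the Fc receptor for immunoglobulin M, had 951, 369, 120 and 31.3. It was 2.58-fold lower on day 4, 3.07-fold lower on day 5 than on day 4, and at least 3.70-fold lower from day 5 to day 7. Fcrla, a receptor-like protein inside B cells, had 410, 130, 37.1 and 2.75, and was 3.16-fold lower on day 4. A second bright probe set, also of a shared kind, had a log2 difference of -1.87 at that step. The probe set of Fcrla that is not of a shared kind had 37.4 units on day 1, too few to show a 2-fold fall. Cr2 and Fcer2a, markers of resting mature B cells, had 47.7 and 55.7 on day 1 and were below the floor by days 4 and 5.

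Fcrl1 and Cd40 did not follow the other mature genes. Fcrl1, a coreceptor of B cells, had 409, 415, 219 and 334. Cd40, the receptor for T cell help that macrophages and stromal cells also carry, had 394, 171, 239 and 452. It was lowest on day 4 and highest on day 7, and its rise of 1.89-fold from day 5 to day 7 was past 2-fold under both other scalings. Its other 2 probe sets also went down on day 4 (log2 differences of -0.66 and -0.46) and up from day 5 to day 7 (0.75 and 0.96). Among surface genes of several stages, Cd24a, also carried by red cell precursors and neutrophils, had 11433, 3948, 1123 and 252 and was 45.3-fold lower on day 7 than on day 1. The summed signal of 5 erythroid markers was 15942, 115, 44.0 and 34.9 and that of 6 neutrophil markers 71768, 41440, 21960 and 3431; their part in the Cd24a signal was not tested. Cd72, a ligand-binding coreceptor, had 1704, 967, 1294 and 1387. Cd37, a tetraspanin of leukocytes, had 789, 364, 300 and 504, whereas a second probe set had 942, 332, 138 and 128, so that its later course depends on the probe set.

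The plasma cell genes took 3 different courses. Igj, the chain that joins immunoglobulin M into polymers, had 1706, 636, 316 and 75.3 and was 22.6-fold lower on day 7 than on day 1. Mzb1, a chaperone of antibody assembly, had 1176, 418, 152 and 64.9 and was 18.1-fold lower. Both stayed above the floor on day 7. Xbp1, a factor of the unfolded protein response used in many secretory cells, had 6774, 5912, 6168 and 5979 and was level. Sdc1 (CD138), a heparan sulfate proteoglycan of plasma cells that stromal and epithelial cells also make, had 283, 1776, 2310 and 1421 and was 6.27-fold higher on day 4. Its other 3 probe sets had log2 differences between 1.71 and 2.13 at that step, with the lowest a bound. On the same arrays 7 of 7 measured stromal markers were at least 2-fold higher on day 4, and their part in the Sdc1 signal was not tested.

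**Figure D4:**
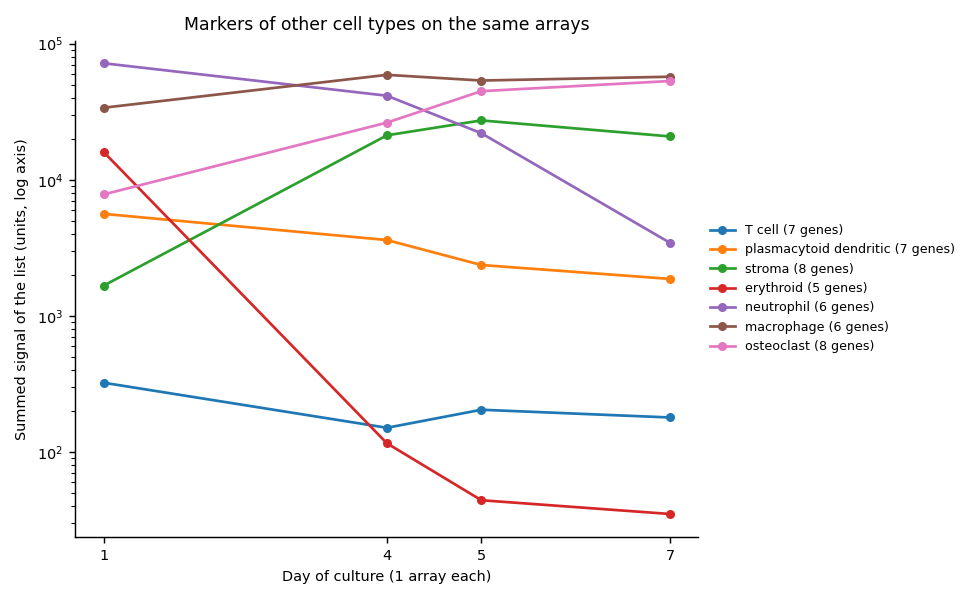
Summed signal (vertical log axis) of the marker lists of other cell types by day of culture, with 1 array at each day. Erythroid markers drop from 15942 to 115 by day 4 and neutrophil markers from 71768 to 3431 by day 7, while stromal, macrophage and osteoclast markers are higher on each later day than on day 1.

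Set side by side, precursor genes had a larger median difference from day 1 to day 4 than mature and plasma cell genes. The median log2 difference on day 4 over day 1 was -1.93 for precursor genes, -0.84 for surface genes of mature B cells and -0.81 for plasma cell genes. At least 2-fold lower were 7 of 7, 4 of 8 and 2 of 4, against 8.65% of all genes. Without Cr2 and Fcer2a, which started too low to show a 2-fold fall, 4 of 6 mature genes were lower and their median was -1.11; 10.5% of all genes with 64.9 units or more on day 1 were lower. The median signal left on day 4 was 26.3% of day 1 for the precursor genes, with a range of 6.60% to 44.5%. The upper end is Rag2, which was below the floor on day 4, so that at most 44.5% was left. The 17.4% of Dntt is an upper bound of the same kind. The median was 56.2% for mature genes with Cr2 and Fcer2a included (31.7% to 141%) and 62.3% for plasma cell genes (35.6% to 627%). Among the plasma cell genes, Mzb1 and Igj kept 35.6% and 37.3%, near the 33.1% of the precursor gene Vpreb3. Xbp1 and Sdc1, which other cell types also express, kept 87.3% and 627%. The plasma cell median lies between these pairs, with no gene near it. Cd40, among the mature genes, is also expressed by other cell types. The ranges overlap: Vpreb3, Lef1 and Rag1 kept shares of 33.1%, 30.3% and 26.3%, and Fcrla kept 31.7%. The precursor median was below the mature median under all 8 alternatives tried, with differences of medians between -1.29 and -0.49.

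At the later steps the lists could no longer be compared in this way. Of the 37 genes above the floor on day 4 or day 5, 18 were at least 2-fold lower on day 5 and 0 were higher, where 4.04% of all genes were lower and 2.02% higher. Of the precursor genes, 2 still had 64.9 units or more on day 4, and both, Vpreb3 and Rag1, were lower on day 5. Of the mature genes 4 of 6 with that level were lower, and of the plasma cell genes 2 of 4. The list median was -0.54 for precursor and -1.62 for mature genes, but 3 of the 5 precursor values are bounds set by the floor. With the genes that had 64.9 units or more on day 4, the precursor median was -2.07 and the mature median -1.63, the opposite order. Both steps use the day 4 array, so that an error on it would move them in opposite directions.

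From day 5 to day 7, 12 of 30 genes above the floor were at least 2-fold lower and 0 were higher, where 5.84% of all genes were lower and 0.853% higher. With the high floor 6 were lower, and Faim3, Vpreb3 and Ms4a1 were among those no longer past 2-fold. Quantile normalization and median scaling each gave 2 higher, Bank1 and Cd40; they moved the median of all genes above the floor on both arrays from -0.11 to 0.03 and 0.06, and the share of higher genes among all those past 2-fold from 12.7% to 31.6% and 27.2%. The genes that were lower include Cd24a (4.45-fold), Igj (4.19-fold), Faim3 (at least 3.70-fold), Vpreb3 (at least 3.34-fold), Ms4a1 (at least 3.23-fold), Ighm (2.88-fold), Cd79b (2.68-fold) and Mzb1 (2.34-fold). Without probe sets of a shared kind, Ighm was below the floor on both arrays, so that this step could not be measured.

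Other genes of the B lineage came from a list of 26, of which 23 were matched to a probe set. On day 7 over day 1, 13 of 21 above the floor (61.9%) were at least 2-fold lower, against 16.2% of all genes, with a median of -1.21. The 3 that were higher (14.3%) are a share near the 12.7% of all genes. They were the oxysterol receptor gene Gpr183 (4.79-fold), the plasma cell factor Prdm1 (2.11-fold) and the tetraspanin gene Cd81 (2.04-fold). Prdm1, which is also expressed in macrophages and osteoclasts, had 361, 727, 776 and 762 and was past 2-fold higher by day 4, as was Sdc1, while Igj and Mzb1 were lower. Gpr183, Prdm1 and Cd81 were named after their values were seen. Ly6d, a marker of early B cell specification, had 1819, 388, 91.7 and 20.7 and was at least 56.1-fold lower, close to the course of Pou2af1. Irf4, a factor of pre-B and plasma cells, was at least 21.1-fold lower, Tnfrsf13c, the BAFF receptor, at least 13.2-fold lower and Flt3, a receptor of lymphoid progenitors, at least 5.72-fold lower.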

How the data were processed

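Per the labels' protocols, biotinylated cRNA was made from 250.0 ng of total RNA. The authors deposited 1 linear intensity for each probe set and array. GCOS 1.4 and MAS5 are named in the submitters' processing notes, with no scaling target given there. Of 45037 probe sets that are not controls, 34945 had 1 gene symbol, 932 several and 9160 none; only the first were used. For each gene, the probe set used was the brightest by mean log2 signal after the floor, the median of all values. Where a gene passed the floor on 1 array of a comparison, its difference is a bound ("at least"), and genes below it on both were left out of that comparison. Higher and lower mean a difference of at least 2-fold, a threshold of size. All matched genes are reported, and of other B lineage genes the 4 with the largest difference past 2-fold.

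Between arrays, 18 spiked controls had an SD of 0.17, 0.10, 0.07 and 0.17 (log2) for day 4 over 1, 5 over 4, 7 over 5 and 7 over 1; probe sets of a gene had a pooled SD of 0.41, 0.29, 0.26 and 0.53. Neither measures variation between cultures, and the number of arrays limits the precision. Genes and lists were chosen with earlier results of these data known. Promoters and motifs were chosen after the values were seen. The counting was tested on simulated data. Python 3.11.15, numpy 2.4.6, pandas 2.3.3 and matplotlib 3.10.9 were used.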

Additional observations from a re-analysis of the deposited data

How the results depend on the processing

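Tried were a low floor of 8.43 units and a high one of 68.9 (percentiles 25 and 60 of all values), no floor with 16 added, median scaling and quantile normalization, averaging a gene's probe sets, leaving out probe sets with IDs ending in _s_at, _x_at or _a_at, and, chosen after seeing the data, only genes at 64.9 units or more on the earlier array. Of 160 list counts and medians recomputed, 125 kept their size (a count within 1.5 times, a median within the pooled SD between probe sets). Of 1270 gene differences, 33 newly passed 2-fold, 38 no longer did and 0 passed ones changed sign.

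The low floor gave precursor minus mature medians of 0.40 (day 5 over 4) and -0.19 (day 7 over 5), precursor minus plasma cell medians of -0.76, 0.41 and -2.34 (day 7 over 1), a median of -3.27 for all genes of the list on day 7 over 1, and 1 gene higher on day 7 over 5. The high floor gave precursor minus mature medians of -0.49 on day 4 over 1, -0.57 on day 5 over 4 (reversed from 1.08), -0.28 on day 7 over 5 and -0.40 on day 7 over 1. It gave precursor minus plasma cell medians of -1.37, 0.27 and -0.38 for the last 3 of these comparisons, and 6 genes lower on day 7 over 5, not 12. Without a floor, precursor minus mature was -0.15 on day 5 over 4 (reversed), and precursor minus plasma cell -1.15 there and -0.96 on day 7 over 5. Both scalings gave 2 genes higher on day 7 over 5.

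The mean of probe sets gave, on day 7 over 1, a median of -1.62, precursor minus mature of -0.63 and precursor minus plasma cell of 0.30 (reversed from -1.42). Without the shared probe sets, precursor minus mature was 0.47 on day 5 over 4 and -0.15 on day 7 over 5. On day 7 over 1 it was -3.23. In the same order, precursor minus plasma cell was -0.67, 0.059 and -2.41. Igll1, Dntt, Fcrla and Pou2f2 then lost all their calls, and Ighm the one on day 7 over 5. The remaining probe sets of Igll1 and Dntt were below the floor throughout, as were those of Ighm on days 5 and 7. That of Fcrla had 37.4 units on day 1. For Igll1, Dntt, Fcrla and Ighm a 2-fold fall at these steps could thus not have been seen. With the genes at 64.9 units or more, the median on day 5 over 4 was -1.35, precursor minus mature -0.44 (reversed) and precursor minus plasma cell -1.60; on day 7 over 5 they were -1.37 and -0.78, and precursor minus mature on day 7 over 1 was -1.01. The comparisons of lists that reversed use precursor genes at or near the floor, and the cause was not tested. No paired analysis was possible because each day has 1 array.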
